A study of Danio rerio with 12 samples.

Results

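The Ephrin, Slit and Netrin guidance genes were taken from a gene count table of whole zebrafish embryos as every gene whose symbol, in any case, begins with epha or ephb and a digit, efna, efnb, slit and a digit, robo and a digit, ntn or unc5, or equals dcc. The rule found 55 of the 32520 genes in the table. It held 8 EphA and 8 EphB receptors, 9 ephrin-A and 5 ephrin-B ligands, 4 Slits, 4 Robos, 9 Netrins and 7 Netrin receptors. The remaining gene, UNC50, shares the first letters of Unc5 but encodes a protein of the Golgi membrane and is no guidance receptor, so it is given apart. Embryos were collected at 12 hours post fertilisation, with 3 libraries of total RNA in each of 4 groups. In the wild-type DMSO group, eggs of the AB/Tuebingen stock were held from spawning in 5 mL with 0.1% DMSO, about 50 to a well. The wild-type 5AzadC group received 100 µM 5AzadC (5-aza-2'-deoxycytidine), which is built into DNA in place of deoxycytidine and traps the enzymes that methylate it. The labels do not say whether the 5AzadC wells held DMSO, so an effect of the drug and one of missing DMSO cannot be told apart. The other groups had the same treatments in embryos labelled as overexpressing the histone variant H2A.Z, joined to the red fluorescent protein mCherry, and are called H2A.Z-mCherry with DMSO or with 5AzadC. The sources used here give neither the promoter of that transgene, nor its founders, nor the clutch of each library. Line, clutch and transgene therefore cannot be told apart in a comparison of genotypes, and p-values measure the spread between these libraries. Nor is it given whether drug and DMSO libraries of a genotype shared clutches, so drug and clutch cannot be told apart either.

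Guidance genes encode signals that tell growing axons and moving cells where to go. Ephrins are ligands held on the cell surface, the A class by a lipid anchor and the B class by a membrane-spanning segment, and Eph receptors are the tyrosine kinases that bind them when cells touch. In zebrafish embryos they keep cells of neighbouring hindbrain segments and somites apart. Slits are secreted repellents read by Robo receptors. Netrins, apart from the Netrin-G genes counted among them here, are secreted cues that attract through Dcc and repel through Unc5 receptors. The ventral midline of the neural tube is a known source of both secreted cues. At 12 hours the body axis is forming somites and the neural plate is folding, before most axons have grown.

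Library totals ran from 1142051 to 1904063 counts, and the guidance genes with UNC50 took 0.254 to 0.422% of them. Totals were 1535951 to 1740059 in wild-type DMSO and 1142051 to 1406110 in wild-type 5AzadC. In H2A.Z-mCherry they were 1182422 to 1660911 with DMSO and 1355337 to 1904063 with 5AzadC. Raw counts of groups given below are not scaled for this depth. Levels are given in CPM, counts scaled to a common library size with the trimmed mean of M values, and 1 count equalled 0.521 to 0.923 CPM. CPM are not divided by gene length, so levels are compared between libraries and not between genes. Of the 55 genes 38 passed the filter on low counts, UNC50 among them, and were tested in a single edgeR quasi-likelihood fit of 12293 genes. A gene that is high in 1 group can pass the filter through that group. A gene was called where the Benjamini-Hochberg adjusted p over all 12293 genes was under 0.05. Each adjusted p printed comes from that fit except where DESeq2, another setting or a library left out is named. A log2 fold change is followed by ± its standard error, derived from the F statistic, with 3 libraries in each group. In whole embryos fewer cells of a type and less RNA per cell cannot be told apart.

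With 5AzadC most tested guidance genes were lower in wild-type embryos. Of the 38 tested genes 22 fell and 2 rose, where 11.7% of all tested genes fell, 10.7% rose and 22.3% were called in either direction. These genes and the lists used below were chosen with earlier results of these data known. Shares set beside those of all tested genes are therefore a description and not an independent comparison. The risers were UNC50 and the Eph receptor gene epha2b. In 29 of the 38 genes the libraries of both groups did not overlap, against 35.2% of all tested genes. The median log2 fold change was -0.95, beside 0.01 over all tested genes. Receptor and ligand genes both held falls: 13 of 20 tested receptor genes fell, and so did 9 of 17 ligand genes. In H2A.Z-mCherry embryos 22 of the 38 fell, where 9.03% of all tested genes fell, 8.84% rose and 17.9% were called in either direction. The libraries of both groups did not overlap in 27 of the 38, against 33.2% of all tested genes. None was called higher there with edgeR, at an unadjusted p under 0.05 or with DESeq2. The median log2 fold change was -0.55, beside 0.02 over all tested genes. In the authors' deposited tables, made with DESeq2, 22 of the 54 guidance genes without UNC50 were lower and 1 was higher in wild type, and 22 were lower in H2A.Z-mCherry. UNC50 was also higher in wild type there (1.33, DESeq2 adjusted p 0.0161). The authors' 22 in wild type included efna5b, which was not tested here, and lacked ntn2 (DESeq2 adjusted p 0.0961).

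**Figure D1:**
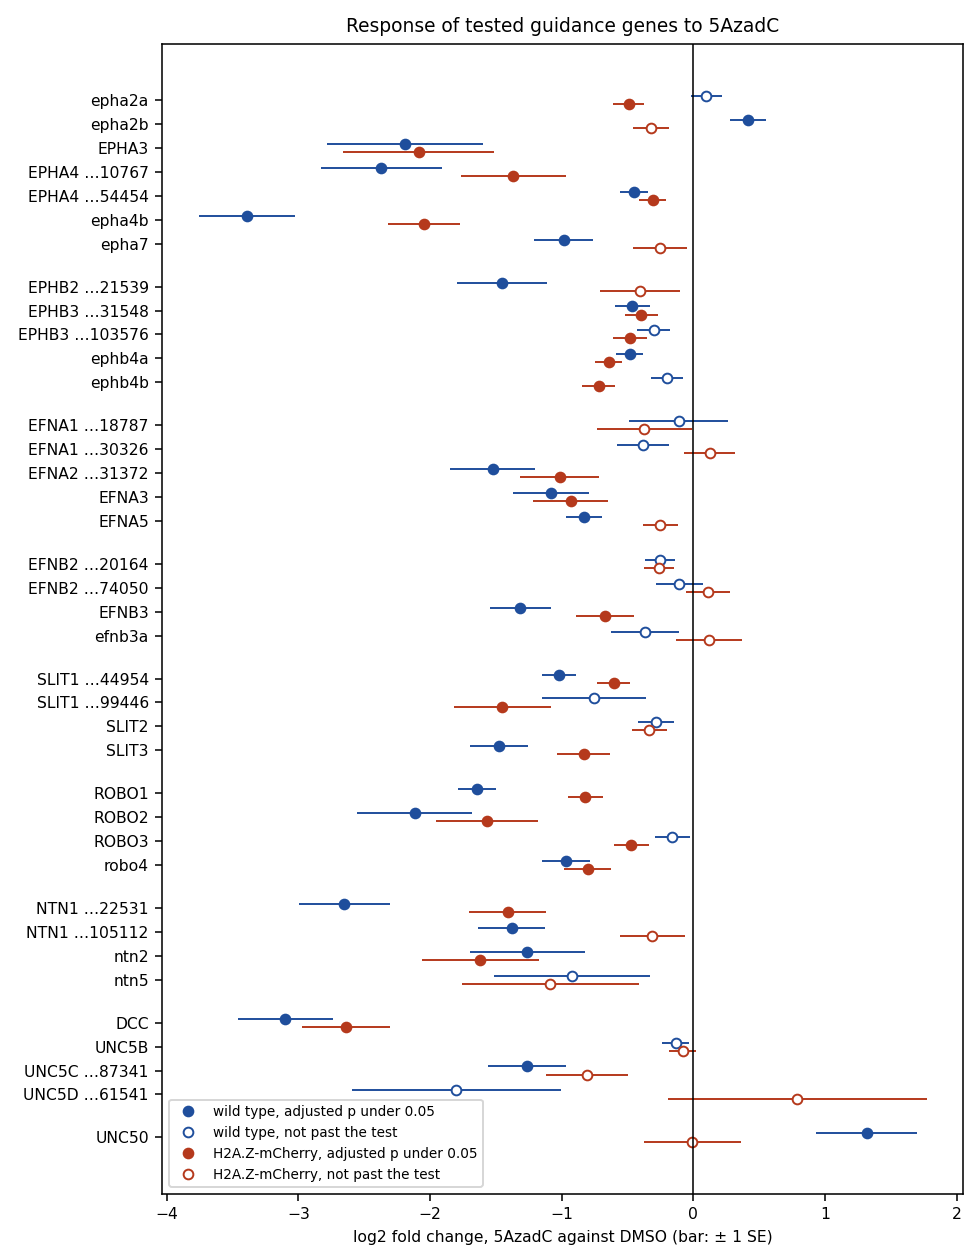
Log2 fold change (x axis, ± 1 standard error) of 5AzadC against DMSO for the 38 tested genes (y axis, grouped by role; a shared symbol is followed by the last digits of its identifier), in wild type (blue) and H2A.Z-mCherry (red). Filled points passed an adjusted p under 0.05; most points of both colours lie left of 0, with epha4b and DCC farthest to the left in wild type and DCC in H2A.Z-mCherry, and UNC50 and epha2b are the filled points to the right.

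Summed over all 54 guidance genes without UNC50, including those too low to test, the level was 3904, 3891 and 3853 CPM in the wild-type DMSO libraries and 2702, 2656 and 2707 CPM with 5AzadC. In H2A.Z-mCherry it was 4063, 3938 and 4222 CPM with DMSO and 2902, 2948 and 2994 CPM with 5AzadC. Every 5AzadC library thus lay below every DMSO library of either genotype. Genes with many counts carry most of such a sum. Of the 8 roles the Netrin ligands kept the smallest share of their DMSO level in wild type, with 141 ± 11.1 CPM in DMSO and 46.9 ± 4.31 CPM with the drug (SD, n = 3). The summed ephrin-B level was 403 ± 33.7 and 311 ± 39.6 CPM (SD, n = 3) in the same groups. These sums were not tested.

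**Figure D2:**
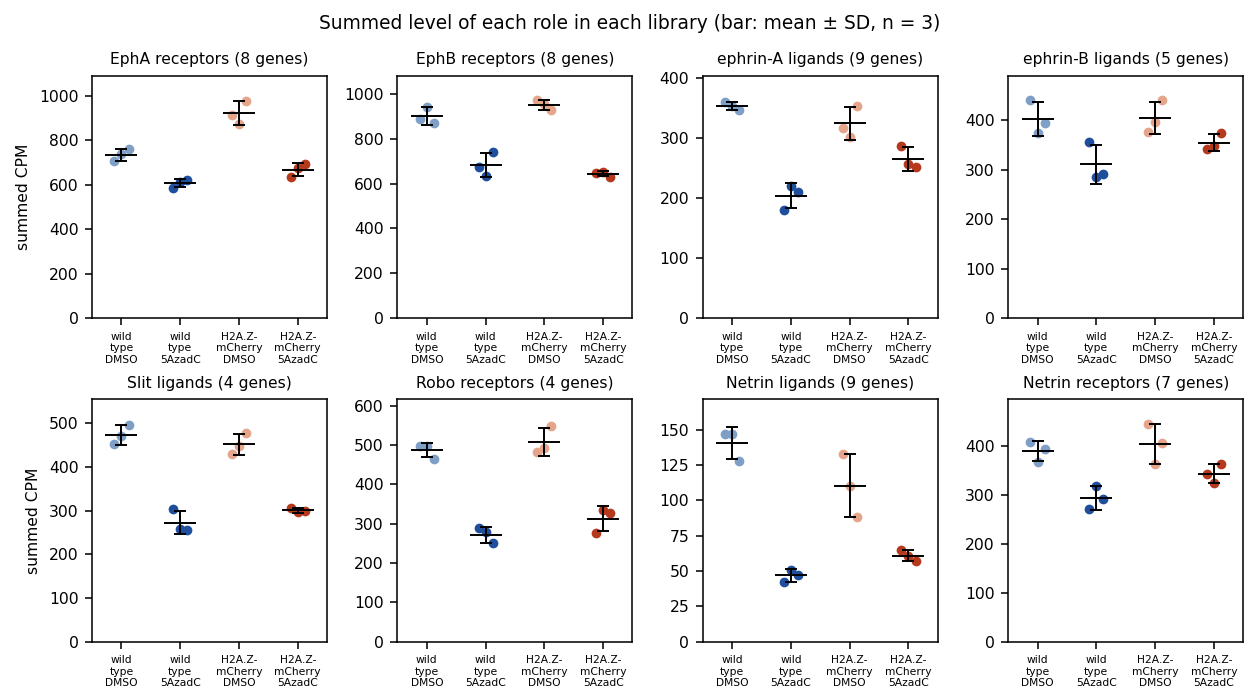
Summed CPM (y axis) of the genes of each role in each of the 12 libraries (points) by group (x axis), with mean ± SD (n = 3). The 5AzadC libraries lie below the DMSO libraries of the same genotype in every panel, by a wide or a narrow margin, and the Netrin ligand panel shows the lowest 5AzadC levels relative to DMSO.

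Among the EphA receptors, which chiefly bind A class ephrins, 5 of 7 tested genes fell in each genotype and 1 rose in wild type. The strongest fall in wild type was that of epha4b, a copy of the EphA4 gene, a receptor that binds ephrins of both classes. Its level was 44.3, 38.0 and 41.1 CPM in the wild-type DMSO libraries and 4.47, 4.12 and 2.77 CPM with 5AzadC. The H2A.Z-mCherry libraries held 50.2, 67.6 and 59.5 CPM with DMSO and 13.5, 11.8 and 17.2 CPM with 5AzadC. Both drug groups lay far below their controls, and the H2A.Z-mCherry drug libraries all lay above the wild-type ones. The fall was 3.39 ± 0.37 on the log2 scale in wild type (adjusted p 4.69e-12), 10.5-fold, and 2.05 ± 0.27 in H2A.Z-mCherry (adjusted p 1.23e-08). Raw counts of epha4b summed to 199 in wild-type DMSO and 14 in wild-type 5AzadC, so the size of that fall rests on few reads. Of the genes named EPHA4 the one with the most counts (ENSDARG00000054454) stood at 298, 295 and 301 CPM with DMSO and 213, 227 and 213 CPM with 5AzadC in wild type. In H2A.Z-mCherry the values were 365, 323 and 393 CPM with DMSO and 260.4, 302 and 306 CPM with 5AzadC. The groups did not overlap in either genotype, but the drop was small, 0.45 ± 0.11 in wild type (adjusted p 0.000615) and 0.31 ± 0.10 in H2A.Z-mCherry (adjusted p 0.0228). The other gene named EPHA4 (ENSDARG00000010767) fell by 2.37 ± 0.46 (adjusted p 3.53e-05) and 1.37 ± 0.40 (adjusted p 0.00957) in the same order. In H2A.Z-mCherry the call of ENSDARG00000054454 was lost without replicate 1 (adjusted p 0.0557) or 3 (0.153) of H2A.Z-mCherry DMSO or replicate 1 (0.144) of H2A.Z-mCherry 5AzadC and with no filter on low counts (0.0751), and that of ENSDARG00000010767 was lost without replicate 2 (adjusted p 0.0954) of H2A.Z-mCherry DMSO or replicate 1 (0.0631) of H2A.Z-mCherry 5AzadC. The sources used here do not say how reads shared between such copies were counted, so values of genes with a shared symbol are uncertain to that extent.

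EPHA3, an ephrin-A receptor, had few reads, with 68 counts over the wild-type DMSO libraries and 11 with 5AzadC, and 54 and 15 in H2A.Z-mCherry. It fell by 2.19 ± 0.60 (adjusted p 0.00376) and 2.09 ± 0.57 (adjusted p 0.00567), and the wild-type value was -3.97 without 5AzadC replicate 2, which held 9 of the 11 counts. For epha7, a receptor with a role in brain regions of the mouse, the wild-type libraries held 67.0, 71.3 and 57.3 CPM with DMSO and 19.4, 44.5 and 36.0 CPM with the drug, with no overlap, a fall of 0.99 ± 0.23 (adjusted p 0.000509). In H2A.Z-mCherry epha7 stood at -0.26 ± 0.21 and did not pass (adjusted p 0.438).

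Both EphA2 genes, receptors found mainly in epithelia in mammals, did not share the fall of the other EphA genes in wild type. For epha2a the wild-type libraries held 166, 190.4 and 212 CPM with DMSO and 216, 173 and 221 CPM with 5AzadC, and the H2A.Z-mCherry libraries 254, 237 and 265 CPM with DMSO and 196, 169.7 and 172 CPM with 5AzadC. The wild-type groups overlapped, whereas in H2A.Z-mCherry every DMSO library lay above every drug library and above every wild-type DMSO library. The log2 fold change was 0.10 ± 0.12 in wild type (adjusted p 0.615), and the gene fell by 0.49 ± 0.12 in H2A.Z-mCherry (adjusted p 0.00115). For epha2b the levels were 96.8, 107 and 115 CPM with DMSO and 130.3, 149.8 and 145 CPM with 5AzadC in wild type. H2A.Z-mCherry embryos had 142, 145 and 149.6 CPM with DMSO and 105, 127 and 116 CPM with 5AzadC. All wild-type drug libraries lay above the wild-type controls, and all H2A.Z-mCherry drug libraries lay below their controls. The gene rose by 0.42 ± 0.14 in wild type (adjusted p 0.0223) and stood at -0.32 ± 0.14 in H2A.Z-mCherry (adjusted p 0.0949). The call in wild type was lost without replicate 1 (adjusted p 0.111) or 2 (0.0516) of wild-type DMSO or replicate 2 (0.0808) or 3 (0.0529) of wild-type 5AzadC.

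EphB receptors, which chiefly bind B class ephrins, fell in 3 of 5 tested genes in wild type and in 4 of 5 in H2A.Z-mCherry. The gene ephb4a encodes a copy of EphB4, the receptor of ephrin-B2 that marks veins. It stood at 302, 308 and 311 CPM with DMSO and 208, 207 and 244 CPM with 5AzadC in wild type. In H2A.Z-mCherry it was 376, 359 and 354 CPM with DMSO and 227, 219.8 and 249 CPM with 5AzadC. There was no overlap in either genotype, and it fell by 0.48 ± 0.10 (adjusted p 0.000211) and 0.64 ± 0.10 (adjusted p 1.05e-06). Its copy ephb4b stood at 188, 208 and 174 CPM with DMSO and 169, 166 and 161 CPM with 5AzadC in wild type. The H2A.Z-mCherry libraries held 196, 184 and 201 CPM with DMSO and 123, 127 and 103 CPM with 5AzadC. The H2A.Z-mCherry drug libraries were the lowest of all 12, a fall of 0.72 ± 0.12 (adjusted p 7.69e-06), while the wild-type value was -0.20 ± 0.12 (adjusted p 0.266). EPHB2 (ENSDARG00000021539) fell by 1.45 ± 0.34 in wild type (adjusted p 0.000652) and was at -0.41 ± 0.30 in H2A.Z-mCherry (adjusted p 0.392).

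Of the genes named EPHB3, ENSDARG00000031548 fell by 0.46 ± 0.13 in wild type (adjusted p 0.00568) and 0.40 ± 0.13 in H2A.Z-mCherry (adjusted p 0.0208). Its wild-type call was lost without replicate 1 (adjusted p 0.0547) of wild-type DMSO or replicate 2 (0.0786) of wild-type 5AzadC. In H2A.Z-mCherry the call was lost without replicate 1 (adjusted p 0.118) or 2 (0.0689) of H2A.Z-mCherry DMSO or replicate 2 (0.0732) or 3 (0.0994) of H2A.Z-mCherry 5AzadC and with no filter on low counts (0.0517). The other, ENSDARG00000103576, fell by 0.48 ± 0.13 in H2A.Z-mCherry (adjusted p 0.00404) and was at -0.30 ± 0.13 in wild type (adjusted p 0.0744), where it passed without wild-type 5AzadC replicate 3 (0.0467).

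Of the ephrin-A ligands 3 of 5 tested genes fell in wild type and 2 in H2A.Z-mCherry. EFNA5 encodes a repellent of retinal and other axons. It stood at 168, 171 and 167 CPM with DMSO and 81.9, 95.5 and 108 CPM with 5AzadC in wild type. In H2A.Z-mCherry the values were 165, 146 and 172 CPM with DMSO and 127, 134 and 143 CPM with 5AzadC. The wild-type drug libraries were the lowest 3 of the 12. The gene fell by 0.83 ± 0.14 in wild type (adjusted p 1.48e-06), while H2A.Z-mCherry had -0.25 ± 0.13 (adjusted p 0.191). EFNA2 (ENSDARG00000031372) fell by 1.52 ± 0.32 (adjusted p 0.000142) and 1.02 ± 0.30 (adjusted p 0.0109), and EFNA3 by 1.08 ± 0.29 (adjusted p 0.00308) and 0.93 ± 0.29 (adjusted p 0.0142). In H2A.Z-mCherry the call of EFNA2 was lost without replicate 3 (adjusted p 0.0818) of H2A.Z-mCherry DMSO. That of EFNA3 was lost without replicate 1 (adjusted p 0.127) or 2 (0.0539) of H2A.Z-mCherry DMSO or replicate 2 (0.121) or 3 (0.0866) of H2A.Z-mCherry 5AzadC. Both genes named EFNA1 were called in none of the 5 contrasts, with log2 fold changes of -0.38 ± 0.20 (ENSDARG00000030326) and -0.11 ± 0.37 (ENSDARG00000018787) in wild type.

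Ephrin-B ligands signal into their own cell as well as to the receptor. Here 1 of 4 tested genes, EFNB3, fell in each genotype. Its level was 67.7, 69.6 and 67.1 CPM with DMSO and 21.6, 31.3 and 29.6 CPM with 5AzadC in wild type. H2A.Z-mCherry embryos had 54.3, 55.3 and 64.6 CPM with DMSO and 35.4, 27.1 and 45.8 CPM with 5AzadC. The groups did not overlap, with a fall of 1.32 ± 0.23 in wild type (adjusted p 5.88e-06) and 0.67 ± 0.22 in H2A.Z-mCherry (adjusted p 0.0233). The latter call was lost without replicate 3 (adjusted p 0.106) of H2A.Z-mCherry DMSO or replicate 1 (0.0607) or 2 (0.192) of H2A.Z-mCherry 5AzadC. EFNB2 (ENSDARG00000020164), a ligand of EphB4 that marks arteries and somites, was at 228, 208 and 212 CPM with DMSO and 208, 166 and 168 CPM with 5AzadC in wild type. These groups overlapped through the first drug library, and without it the gene passed (-0.36, adjusted p 0.0436). With all libraries it was at -0.25 ± 0.12 (adjusted p 0.115) and in H2A.Z-mCherry at -0.26 ± 0.11 (adjusted p 0.103). The other EFNB2 gene (ENSDARG00000074050) was at -0.11 ± 0.18 and 0.11 ± 0.17, and efnb3a at -0.37 ± 0.26 and 0.12 ± 0.25, with adjusted p from 0.343 to 0.806.

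Slits and Robos fell on both sides of the pair. Of 4 Slit genes 2 fell in wild type and 3 in H2A.Z-mCherry, and of 4 Robo genes 3 and 4 fell. ROBO1, a main Slit receptor, stood at 197, 176 and 194 CPM with DMSO and 50.6, 64.2 and 67.4 CPM with 5AzadC in wild type. In H2A.Z-mCherry it was 188, 187 and 195 CPM with DMSO and 94.1, 117 and 109.8 CPM with 5AzadC. The control groups overlapped with each other, the drug groups lay far below them, and the wild-type drug libraries were lowest. The fall was 1.64 ± 0.15 in wild type (adjusted p 1.66e-15), 3.12-fold, and 0.82 ± 0.13 in H2A.Z-mCherry (adjusted p 1.97e-06), 1.76-fold. ROBO2, which acts beside ROBO1 in commissural axons of the mouse, fell by 2.12 ± 0.44 (adjusted p 0.000108) and 1.57 ± 0.39 (adjusted p 0.00192). The receptor gene robo4, known from blood vessels, stood at 107, 113 and 96.4 CPM with DMSO and 61.0, 41.2 and 59.1 CPM with 5AzadC in wild type. The H2A.Z-mCherry libraries held 105, 79.4 and 94.3 CPM with DMSO and 51.2, 51.3 and 56.2 CPM with 5AzadC. It had no overlap in either genotype and fell by 0.97 ± 0.18 (adjusted p 1.87e-05) and 0.80 ± 0.18 (adjusted p 0.000563). ROBO3, a divergent family member, fell by 0.47 ± 0.13 in H2A.Z-mCherry (adjusted p 0.00651) and was at -0.16 ± 0.13 in wild type (adjusted p 0.436). The call of ROBO3 was lost without replicate 3 (adjusted p 0.082) of H2A.Z-mCherry DMSO or replicate 1 (0.081) of H2A.Z-mCherry 5AzadC.

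Among the ligands SLIT3, whose product also acts outside the nervous system in the mouse, stood at 79.7, 82.2 and 87.3 CPM with DMSO and 39.5, 18.9 and 30.5 CPM with 5AzadC in wild type. In H2A.Z-mCherry the values were 81.8, 83.5 and 92.6 CPM with DMSO and 56.4, 53.6 and 35.9 CPM with 5AzadC. Every drug library lay below every control library. It fell by 1.48 ± 0.22 (adjusted p 8.82e-08) and 0.83 ± 0.20 (adjusted p 0.00138). Of the SLIT1 genes, which like SLIT2 encode repellents, ENSDARG00000044954 fell by 1.02 ± 0.13 (adjusted p 7.34e-10) and 0.60 ± 0.13 (adjusted p 0.00019). The other (ENSDARG00000099446) held 21.6, 6.59 and 4.62 CPM in the wild-type drug libraries, of which the first lay among the controls at 16.4, 13.8 and 27.4 CPM. It was at -0.75 ± 0.39 in wild type (adjusted p 0.177), at -1.73 without that library (adjusted p 0.00639), and fell by 1.45 ± 0.37 in H2A.Z-mCherry (adjusted p 0.00254). SLIT2, a repellent from the floor plate, was at -0.29 ± 0.14 (adjusted p 0.13) and -0.33 ± 0.13 (adjusted p 0.0735). In H2A.Z-mCherry it passed without DMSO replicate 1 (0.0353).

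Of 4 tested Netrin genes 3 fell in wild type and 2 in H2A.Z-mCherry, and of 4 Netrin receptor genes 2 and 1 fell. DCC, the attractive Netrin receptor, stood at 43.6, 37.4 and 55.4 CPM in the wild-type DMSO libraries and 5.21, 4.94 and 5.54 CPM with 5AzadC. H2A.Z-mCherry embryos had 43.8, 31.2 and 47.6 CPM with DMSO and 4.52, 7.07 and 7.29 CPM with 5AzadC. All 6 drug libraries lay below 8 CPM and all 6 control libraries above 30 CPM. Raw counts of DCC summed to 219 with DMSO and 19 with 5AzadC in wild type, and to 163 and 32 in H2A.Z-mCherry. The size of each fall therefore rests on few reads. The fall was 3.10 ± 0.36 in wild type (adjusted p 7.34e-11), 8.57-fold, and 2.64 ± 0.34 in H2A.Z-mCherry (adjusted p 2.73e-09), 6.23-fold. Both calls held under every alternative tried, each library left out in turn included. Its ligand NTN1 (ENSDARG00000022531) stood at 47.4, 48.3 and 41.1 CPM with DMSO and 6.70, 1.65 and 13.9 CPM with 5AzadC in wild type. In H2A.Z-mCherry it was 47.8, 44.1 and 43.3 CPM with DMSO and 21.1, 13.0 and 17.2 CPM with 5AzadC. The controls of both genotypes overlapped, and every drug library lay below them. The gene fell by 2.65 ± 0.35 (adjusted p 3.18e-09) and 1.41 ± 0.29 (adjusted p 0.000192), and the wild-type value was -3.38 without 5AzadC replicate 3. The other NTN1 gene (ENSDARG00000105112) fell by 1.38 ± 0.25 in wild type (adjusted p 1.49e-05) and was at -0.31 ± 0.25 in H2A.Z-mCherry (adjusted p 0.428).

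A further Netrin gene, ntn2, fell by 1.26 ± 0.44 in wild type (adjusted p 0.028) and 1.62 ± 0.45 in H2A.Z-mCherry (adjusted p 0.00577). Its wild-type call was lost without replicate 1 (adjusted p 0.305) of wild-type DMSO or replicate 3 (0.216) of wild-type 5AzadC and with DESeq2 (0.0533). The log2 fold change was then -0.80 without DMSO replicate 1 and -0.82 without 5AzadC replicate 3, and the call in H2A.Z-mCherry was lost without replicate 1 (adjusted p 0.0737) of H2A.Z-mCherry DMSO. The ntn5 gene was called in no contrast (-0.92 ± 0.59 in wild type, adjusted p 0.292). UNC5B, a repulsive Netrin receptor, stood at 301, 278 and 273 CPM with DMSO and 246, 274 and 257 CPM with 5AzadC in wild type. The H2A.Z-mCherry libraries held 361, 302 and 329.8 CPM with DMSO and 315, 295 and 326 CPM with 5AzadC. The drug and control libraries of each genotype overlapped, with log2 fold changes of -0.13 ± 0.10 (adjusted p 0.398) and -0.08 ± 0.10 (adjusted p 0.637). UNC5C (ENSDARG00000087341) fell by 1.26 ± 0.29 in wild type (adjusted p 0.000602) and was at -0.81 ± 0.31 in H2A.Z-mCherry (adjusted p 0.0574). UNC5D (ENSDARG00000061541) was low, with 47 counts against 10 in wild type and 6 against 13 in H2A.Z-mCherry, and did not pass in either (adjusted p 0.0952 and 0.644). In wild type it passed without 5AzadC replicate 2 (0.00802). UNC50 held 6.96, 11.5 and 6.52 CPM with DMSO and 23.8, 20.6 and 18.5 CPM with 5AzadC in wild type. The groups did not overlap, and it rose by 1.32 ± 0.38 there (adjusted p 0.00724), and was at -0.01 ± 0.37 in H2A.Z-mCherry (adjusted p 0.994).

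**Figure D3:**
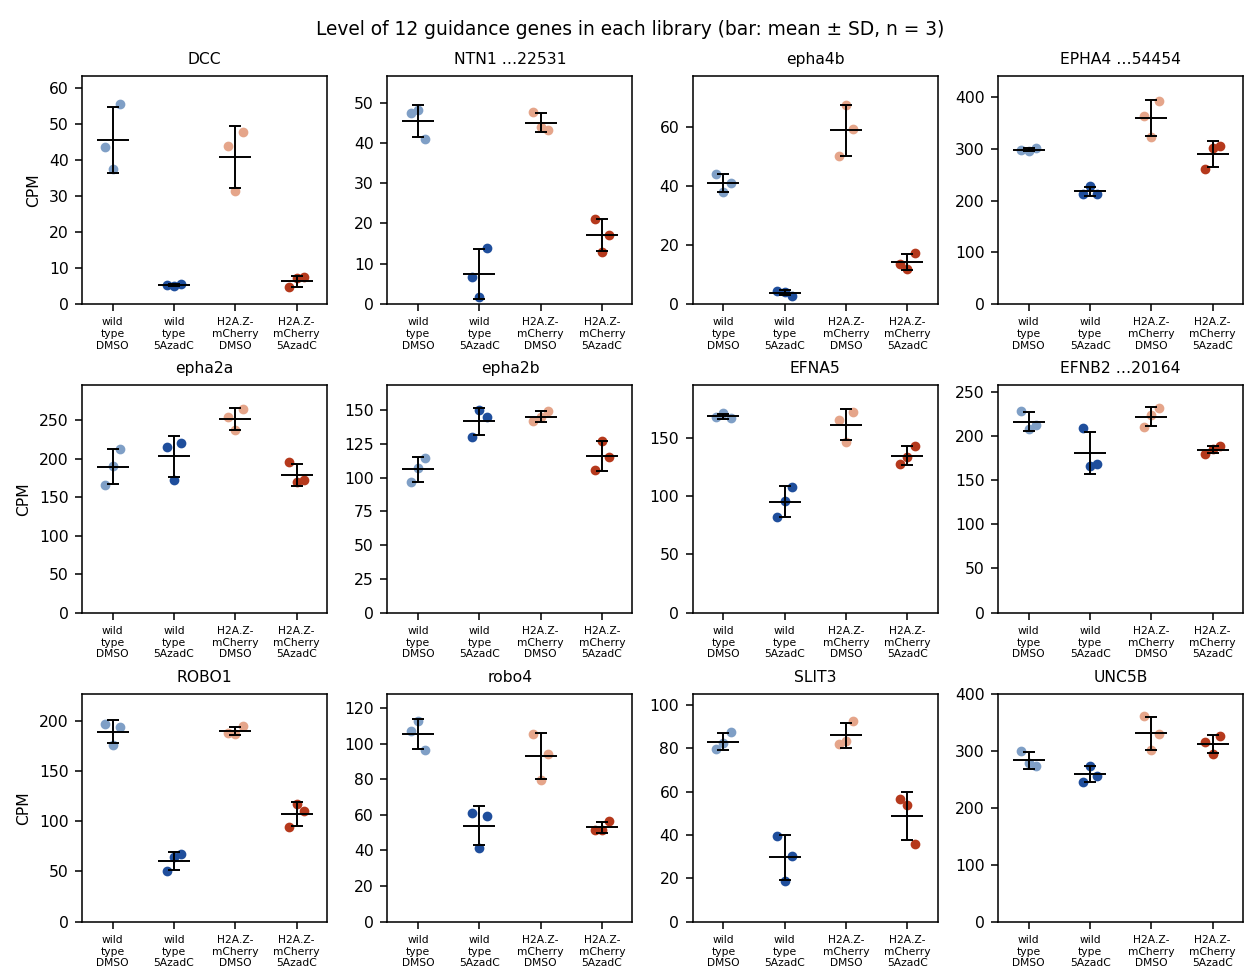
CPM (y axis, from 0) of 12 guidance genes in each of the 12 libraries (points) by group (x axis), with mean ± SD (n = 3). DCC, NTN1, epha4b and ROBO1 drop with 5AzadC in both genotypes, epha2b lies higher with the drug in wild type and, without passing the test, lower in H2A.Z-mCherry, and UNC5B overlaps between drug and control.

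The 17 genes below the filter had 1 to 83 counts each over all 12 libraries and were not tested. They were EPHA6, EPHB1, a second EPHB2 (ENSDARG00000037373), ephb6, a second EFNA2 (ENSDARG00000079740), efna3a, efna4, efna5b, EFNB1, NTN4, both NTNG1 and both NTNG2 genes, UNC5A, a second UNC5C (ENSDARG00000099133) and a second UNC5D (ENSDARG00000092722). Their summed level ranged over 23.6 to 43.0 CPM in wild-type DMSO and 14.8 to 21.4 CPM in wild-type 5AzadC libraries, and over 17.0 to 20.6 and 19.6 to 32.4 CPM in H2A.Z-mCherry. One of them, efna5b, is given because the authors' table calls it. Its wild-type libraries held 38 counts with DMSO and 3 with 5AzadC, a ratio of 9.50 after scaling for library size (95% interval 3.01 to 48.1, exact binomial, counting error only). In the authors' deposited table it was lower in wild type with a log2 fold change of -3.28 (DESeq2 adjusted p 0.0317). In H2A.Z-mCherry it had 15 counts with DMSO and 14 with 5AzadC, with mean levels of 3.86 and 2.63 CPM.

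Set side by side, 17 guidance genes fell in both genotypes. Another 5 fell with a call in wild type only, and 5 with a call in H2A.Z-mCherry only. The 2 responses come from separate DMSO and drug libraries. Across the 37 tested guidance genes without UNC50 their Pearson correlation was 0.692 and their Spearman correlation 0.615, and across all 12293 genes they were 0.527 and 0.467, given as a description, since genes share libraries. Of the 22 genes that fell in wild type 20 (90.9%) had the smaller change in H2A.Z-mCherry, where the share was 84.9% of all 1433 genes that fell in wild type. A choice on the wild-type result raises both shares. The exceptions were ephb4a and ntn2.

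**Figure D4:**
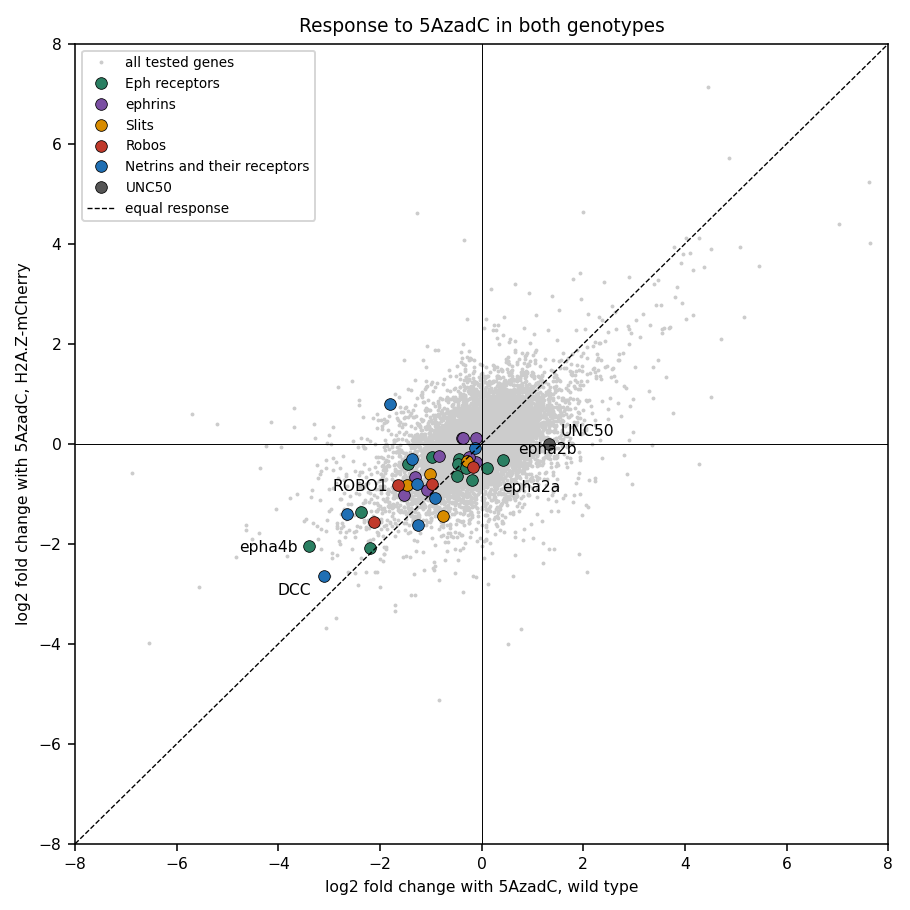
Log2 fold change with 5AzadC in wild type (x axis) against H2A.Z-mCherry (y axis) for all 12293 tested genes (grey) and the 38 members by role (colours), with the line of equal response dashed. Most members lie left of and below 0, DCC and epha4b farthest to the left, and ROBO1 lies above the line and epha2a and epha2b below it.

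Whether the responses differed was asked with an interaction term, positive where a gene fell less or rose more in H2A.Z-mCherry. It passed for 3 of 38 genes, where 3.75% of all tested genes passed, 1.9% with a positive and 1.85% with a negative term. ROBO1 fell less in H2A.Z-mCherry, with an interaction of 0.82 ± 0.20 (adjusted p 0.00672). The 2 EphA2 genes had negative interactions, -0.59 ± 0.17 for epha2a (adjusted p 0.025) and -0.74 ± 0.20 for epha2b (adjusted p 0.0161). Mean levels in wild-type DMSO, wild-type 5AzadC, H2A.Z-mCherry DMSO and H2A.Z-mCherry 5AzadC were 190, 203, 252 and 179 CPM for epha2a. For epha2b they were 106, 142, 145 and 116 CPM. Both genes were also called higher in H2A.Z-mCherry with DMSO, and the same DMSO libraries enter the interaction. Neither was called between genotypes with 5AzadC. Each of the 3 interaction calls was lost without some single library. That of ROBO1 was lost without replicate 1 (adjusted p 0.0525) of wild-type 5AzadC. That of epha2b was lost without replicate 1 (adjusted p 0.0598) of wild-type DMSO or replicate 1 (0.0502) of H2A.Z-mCherry 5AzadC. For epha2a the call was lost without replicate 1 (adjusted p 0.118) or 2 (0.0514) of wild-type DMSO, replicate 1 (0.0707) or 3 (0.0752) of wild-type 5AzadC, replicate 3 (0.0716) of H2A.Z-mCherry DMSO or replicate 2 (0.0699) or 3 (0.0771) of H2A.Z-mCherry 5AzadC. The NTN1 gene ENSDARG00000022531 was at 1.24 ± 0.47 (adjusted p 0.136) and passed without wild-type 5AzadC replicate 3 (0.0203). The interaction did not pass for DCC (0.46 ± 0.53, adjusted p 0.737) or epha4b (1.34 ± 0.49, adjusted p 0.118).

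Without the drug few of these genes were called between genotypes. H2A.Z-mCherry against wild type with DMSO gave 3 calls among 38, where 5.32% of all tested genes were called, 2.73% higher and 2.59% lower. The libraries of both groups did not overlap in 12 of the 38, 5 of them lower in H2A.Z-mCherry, against 21.5% of all tested genes. Few calls thus do not mean that the DMSO levels were alike. The receptor genes epha2a and epha2b were higher, by 0.41 ± 0.12 (adjusted p 0.0206) and 0.45 ± 0.14 (adjusted p 0.0339), and UNC5D was lower, with 6 counts against 47, at -2.70 ± 0.86 (adjusted p 0.0459). Each call was lost without some single library. That of epha2a was lost without replicate 1 (adjusted p 0.188) or 2 (0.0662) of wild-type DMSO or replicate 3 (0.0975) of H2A.Z-mCherry DMSO. That of epha2b was lost without replicate 1 (adjusted p 0.173) or 2 (0.0861) of wild-type DMSO or replicate 1 (0.0516), 2 (0.0891) or 3 (0.101) of H2A.Z-mCherry DMSO and with no filter on low counts (0.053). That of UNC5D was lost without replicate 2 (adjusted p 0.0644) of wild-type DMSO, replicate 1 (0.157), 2 (0.0812) or 3 (0.169) of H2A.Z-mCherry DMSO or replicate 2 (0.0555) or 3 (0.0551) of H2A.Z-mCherry 5AzadC and with DESeq2 (0.0746). The value of UNC5D was -3.43 without H2A.Z-mCherry DMSO replicate 2. In 3 other settings UNC5D did not pass the filter on low counts and was not tested. These were without replicate 1 or 3 of wild-type DMSO and in a fit of the 6 libraries compared. UNC5D thus passed the filter through wild-type libraries, the side where it was high, so its call is not independent of the filter. The count of members called ran from 0 (without wild-type DMSO replicate 1 or 2, or H2A.Z-mCherry DMSO replicate 3) through 1 (without H2A.Z-mCherry DMSO replicate 1 or 2) to 3. UNC5C, at -0.81 ± 0.28 (adjusted p 0.0731), passed in a fit of the 6 libraries compared (0.038).

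With 5AzadC 8 of 38 genes differed between genotypes, 7 higher and 1 lower in H2A.Z-mCherry, where 15.6% of all tested genes were called, 8% higher and 7.61% lower. The libraries did not overlap in 15 of the 38, against 30.4% of all tested genes. The contrast shares its drug libraries with both responses to 5AzadC. The higher genes were epha4b (1.87 ± 0.42, adjusted p 0.000618), NTN1 (ENSDARG00000022531, 1.22 ± 0.39, adjusted p 0.0199), epha7 (0.84 ± 0.23, adjusted p 0.00592) and ROBO1 (0.83 ± 0.15, adjusted p 2.86e-05). SLIT3 (0.69 ± 0.23, adjusted p 0.0265), EFNA5 (0.51 ± 0.14, adjusted p 0.00617) and EPHA4 (ENSDARG00000054454, 0.41 ± 0.11, adjusted p 0.0031) were the rest, and ephb4b was lower (-0.49 ± 0.13, adjusted p 0.00347). The calls of epha4b, ROBO1 and EPHA4 held under every alternative tried, each library left out in turn included. Among these genes only ROBO1 had a called interaction. With DMSO, too, H2A.Z-mCherry lay above wild type without overlap for epha4b (50.2 to 67.6 against 38.0 to 44.3 CPM). The same held for this EPHA4 gene (323 to 393 against 295 to 301 CPM), and neither was called with DMSO. Their difference with 5AzadC is therefore not particular to the drug groups. NTN1 was lost without replicate 1 (adjusted p 0.0749) or 2 (0.207) of wild-type 5AzadC or replicate 1 (0.0885) or 3 (0.0505) of H2A.Z-mCherry 5AzadC and in a fit of the 6 libraries compared (0.0761), and its value was 0.75 when wild-type 5AzadC replicate 2 was left out and 1.95 when replicate 3 was. SLIT3 was lost without replicate 2 (adjusted p 0.228) or 3 (0.0557) of wild-type 5AzadC or replicate 1 (0.126) or 2 (0.11) of H2A.Z-mCherry 5AzadC and in a fit of the 6 libraries compared (0.0641), with a value of 0.45 without wild-type 5AzadC replicate 2. The call of epha7 was lost without replicate 1 (adjusted p 0.142) of wild-type 5AzadC or replicate 3 (0.0749) of H2A.Z-mCherry 5AzadC, with a value of 0.54 in the first case. EFNA5 was lost without replicate 1 (adjusted p 0.0783) of wild-type 5AzadC and ephb4b without replicate 3 (adjusted p 0.0587) of H2A.Z-mCherry 5AzadC. The count of calls was 5 without wild-type 5AzadC replicate 1 or H2A.Z-mCherry 5AzadC replicate 3. EPHB2 (ENSDARG00000021539), at 0.94 ± 0.35 (adjusted p 0.0547), passed with the replicate number as a block (0.0481), without wild-type DMSO replicate 1 (0.0493) and without wild-type 5AzadC replicate 3 (0.0238). UNC5B, at 0.27 ± 0.10 (adjusted p 0.0617), passed with upper quartile factors (0.0461), and the EPHB3 gene ENSDARG00000103576, at -0.33 ± 0.13 (adjusted p 0.0706), passed without wild-type 5AzadC replicate 2 (0.0394).

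Partners of the same pathways were read from separate lists. Of 12 tested co-receptors and modulators 7 fell and 1 rose in wild type, with a median log2 fold change of -0.52, and 3 fell and 1 rose in H2A.Z-mCherry, with a median of -0.21. Over all tested genes 11.7% fell and 10.7% rose in wild type, and 9.03% fell and 8.84% rose in H2A.Z-mCherry, with medians of 0.01 and 0.02. Both genes named NEO1, for neogenin, a relative of Dcc that binds Netrins and repulsive guidance molecules, fell in wild type, by 2.09 ± 0.15 (adjusted p 7.51e-17) for ENSDARG00000075100 and by 1.85 ± 0.14 (adjusted p 2.12e-19) for ENSDARG00000102855. In H2A.Z-mCherry their falls were 1.34 ± 0.13 (adjusted p 1.68e-11) and 0.90 ± 0.13 (adjusted p 4.81e-08). Both had positive interactions, 0.75 ± 0.20 (adjusted p 0.0235) and 0.95 ± 0.19 (adjusted p 0.00042). DAG1, for dystroglycan, which binds Slits in the mouse, fell by 0.60 ± 0.08 (adjusted p 1.48e-08) in wild type, and FLRT3, whose protein binds Unc5 receptors, by 0.44 ± 0.10 (adjusted p 0.000642). LRRC4, of a family that binds Netrin-G proteins, fell by 0.74 ± 0.18 (adjusted p 0.00146) in wild type and 1.41 ± 0.18 (adjusted p 7.77e-09) in H2A.Z-mCherry. The gene adam10a, for a protease that cuts ephrins in the mouse, rose by 0.48 ± 0.15 (adjusted p 0.0172) and 0.79 ± 0.15 (adjusted p 5.4e-05). Between genotypes with 5AzadC 4 of the 12 were higher and 1, adam10b, was lower by 0.82 ± 0.20 (adjusted p 0.0022), where 8% of all tested genes were higher and 7.61% lower. The NEO1 genes were higher in H2A.Z-mCherry than in wild type, by 1.10 ± 0.16 (adjusted p 5.93e-07) and 0.69 ± 0.14 (adjusted p 0.00022), as were DAG1, by 0.52 ± 0.08 (adjusted p 2.51e-06), and FLRT3, by 0.42 ± 0.10 (adjusted p 0.00215). DAG1 also had a positive interaction of 0.58 ± 0.12 (adjusted p 0.00075).

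Of 38 tested cytoplasmic effectors 9 fell and 4 rose in wild type, and 8 fell and 6 rose in H2A.Z-mCherry, with medians of -0.26 and -0.13. The shares over all tested genes were 11.7% and 10.7% in wild type, and 9.03% and 8.84% in H2A.Z-mCherry, and the share of effectors that rose in wild type was close to that of all genes. DOCK1, an activator of Rac that acts below Dcc, fell by 1.81 ± 0.15 (adjusted p 2.1e-17) in wild type and 1.57 ± 0.14 (adjusted p 4.78e-15) in H2A.Z-mCherry. Both genes for Trio, an activator of Rac, fell in wild type, TRIO by 1.07 ± 0.10 (adjusted p 5.87e-15) and triob by 1.20 ± 0.12 (adjusted p 1.9e-13), and in H2A.Z-mCherry by 0.94 ± 0.10 (adjusted p 2.47e-12) and 1.27 ± 0.12 (adjusted p 4.05e-14). NCK1, an adaptor that binds Dcc, rose by 1.53 ± 0.22 (adjusted p 5.41e-08) in wild type and 0.75 ± 0.23 (adjusted p 0.0142) in H2A.Z-mCherry. INPPL1, a lipid phosphatase that binds EphA2, fell by 0.36 ± 0.11 (adjusted p 0.0105) and 0.58 ± 0.11 (adjusted p 5.42e-05). Where 8% of all tested genes were higher and 7.61% lower, 7 effectors were higher and 3 lower in H2A.Z-mCherry than in wild type with 5AzadC, among them the small GTPase genes CDC42, higher by 0.65 ± 0.19 (adjusted p 0.00984), and rac1a, by 0.37 ± 0.11 (adjusted p 0.0141), while NCK1 was lower by 0.74 ± 0.21 (adjusted p 0.00821). ENAH, an actin regulator of the Ena/VASP family, had a positive interaction of 0.97 ± 0.26 (adjusted p 0.0197). It was the 1 interaction call among the 38 effectors, where 3.75% of all tested genes passed. With no drug 1 effector, EVL, of the same family, was lower in H2A.Z-mCherry, by 0.95 ± 0.29 (adjusted p 0.0374). There 2.59% of all tested genes were lower. Both counts were near the shares of all tested genes.

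Markers of tissues that use guidance genes are set beside the same shares of all tested genes, 11.7% lower and 10.7% higher in wild type, and 9.03% and 8.84% in H2A.Z-mCherry. Between genotypes 2.73% were higher and 2.59% lower with DMSO, and 8% and 7.61% with 5AzadC. Of 25 tested neural plate and hindbrain genes 15 fell in wild type and 9 in H2A.Z-mCherry, with 1 rise in the latter. Their median log2 fold changes were -0.85 and -0.56. With 5AzadC 9 were higher in H2A.Z-mCherry than in wild type, and with DMSO 1 was higher and 1 lower. Their summed level was 1253 to 1372 CPM in wild-type DMSO, 712 to 892 CPM in wild-type 5AzadC, 1392 to 1483 CPM in H2A.Z-mCherry DMSO and 1115 to 1193 CPM in H2A.Z-mCherry 5AzadC libraries. Floor plate and notochord genes, a source of Slits and Netrins, had 1 fall among 14 in each genotype, that of FOXA1. It fell by 2.77 ± 0.45 (adjusted p 1.07e-06) in wild type and 1.10 ± 0.38 (adjusted p 0.0339) in H2A.Z-mCherry. The medians of these genes were -0.24 and 0.10. Their summed level was 479.7 to 512, 402 to 434, 473 to 538 and 459 to 517 CPM in the same order of groups. Somite and presomitic genes had 3 rises among 16 in wild type and 1 in H2A.Z-mCherry, with 846 to 907, 911 to 1024, 921 to 1028 and 995 to 1099.6 CPM. Endothelium and blood genes had 2 rises among 9 in wild type and 1 fall in H2A.Z-mCherry, with 302 to 364, 379 to 454, 329.8 to 389 and 293 to 322 CPM. Neural crest genes had 1 rise and 3 falls among 15 in wild type and 1 of each in H2A.Z-mCherry, with 1503 to 1601, 1223 to 1308, 1518 to 1661 and 1540.2 to 1588 CPM. Epidermis and periderm genes had 11 rises among 14 in wild type and 6 in H2A.Z-mCherry, with 5709 to 6495, 10477 to 12746, 4560.4 to 5636 and 5309.5 to 6723 CPM. Their median log2 fold changes were 1.06 and 0.21. Compared between genotypes, 6 epidermis genes were higher and 2 lower in H2A.Z-mCherry with DMSO, and 1 was higher and 9 lower with 5AzadC.

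Listed marker genes with no count in any library were a gene each named ZIC2, SOX1, hoxb1b and mafbb among neural genes, col8a1a and COL8A1 among floor plate and notochord genes, gata1a among endothelium and blood genes, and foxi3b and epcam among epidermis genes. The part of these tissues in the guidance gene results was not tested.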

How the data were processed

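Total RNA was sequenced in 12 libraries, and the file deposited by the authors holds raw counts per Ensembl gene. Named without role or order in the submitters' processing notes are the build GRCz11, deepTools, Subread, featureCounts 2.0.3, STAR and DESeq2 1.22.2. The sources used here give no annotation release, strand setting or handling of reads with several positions. The authors also deposited DESeq2 tables of 5AzadC against DMSO in each genotype. In these deposited tables the values are a mean normalised count signal, log2 fold changes, a Wald score and p-values, all by the authors. Symbols come from a table of Ensembl names that covers 29201 of 32520 genes.

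Tests on the counts used edgeR 4.0.16 (R 4.3.3). The filterByExpr function kept 12293 genes with 98.5% of counts. All 12 libraries entered 1 quasi-likelihood fit with robust dispersion and a coefficient per group, tested in 5 contrasts. A standard error was approximated by dividing the size of the log2 fold change by the root of F. The script was tested on simulated data. Alternatives were DESeq2 1.42.0 size factors and test, upper quartile factors, no filter, fits of the groups compared, a replicate block, and each library left out. The text names every member called in any contrast. Of each partner list it names called genes that were among the 4 with the smallest adjusted p in at least 1 contrast. Values of some of these genes, but not all, are also given for other contrasts. The gene adam10b is named although it was not among them. A named effector gene is not reported here. Members and lists were chosen with earlier results of these data known. Promoter sequences, for which a description had been planned, are not used here.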

Additional observations from a re-analysis of the deposited data

Results flagged for a closer look

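The response to 5AzadC differed between the genotypes, by the interaction test over all 12293 genes, for 3 members. ROBO1 had an interaction of 0.82 on the log2 scale (edgeR adjusted p 0.00672), with a change of -1.64 in wild type and -0.82 in H2A.Z-mCherry. For epha2a the interaction was -0.59 (edgeR adjusted p 0.025), with 0.10 and -0.49 in the same order. For epha2b it was -0.74 (edgeR adjusted p 0.0161). For this gene the wild-type drug libraries all lay above their controls (0.42, adjusted p 0.0223) and the H2A.Z-mCherry drug libraries all below theirs (-0.32, adjusted p 0.0949, which did not pass). The wild-type call was lost without replicate 1 (adjusted p 0.111) or 2 (0.0516) of wild-type DMSO or replicate 2 (0.0808) or 3 (0.0529) of wild-type 5AzadC. Each of these interaction calls was lost without at least 1 library. Both EphA2 genes were also called higher in H2A.Z-mCherry with DMSO, from the same DMSO libraries that enter the interaction.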

How the results depend on the processing

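Of the 60 member values called over the 5 contrasts, 38 kept their call under every alternative tried and 22 lost it under at least 1, and no called value changed its sign. By contrast, 21 of 24 calls held throughout for 5AzadC in wild type, 14 of 22 for 5AzadC in H2A.Z-mCherry, 3 of 8 for the genotypes with 5AzadC, and 0 of 3 each for the genotypes with DMSO and for the interaction. Leaving out 1 library at a time gave 21 to 27 members called for 5AzadC in wild type, 18 to 22 in H2A.Z-mCherry, 0 to 3 for the genotypes with DMSO, 5 to 9 for the genotypes with 5AzadC and 1 to 3 for the interaction, which was 1 without wild-type DMSO replicate 1 or wild-type 5AzadC replicate 1. Over all genes it gave 1389 to 2290 calls for 5AzadC in H2A.Z-mCherry, the lowest without H2A.Z-mCherry 5AzadC replicate 2. Normalisation, filter, DESeq2 and smaller fits left every count of calls within 1.5 times. Of 130 uncalled member values the sign differed from the first fit in 92 of 2289 refits. The deviations of same-numbered libraries from their group means correlated from -0.0265 to 0.024 over 18 pairs. For libraries of different number the range was -0.0287 to 0.0199 over 36 pairs, and 6 of 12 libraries correlated best with their own number. With 3 libraries in each group this check cannot show which libraries shared a clutch. With the replicate number as a block the members called were 24 for 5AzadC in wild type, 22 for 5AzadC in H2A.Z-mCherry, 3 for the genotypes with DMSO, 9 for the genotypes with 5AzadC and 3 for the interaction, out of 2713, 2207, 651, 1864 and 464 genes called in all in the same order. Depth limits the genes with few reads most: ntn2, with 240 counts over all libraries, and EPHA3, with 148, had standard errors of 0.44 and 0.60 in wild type on the log2 scale, against 0.15 for ROBO1.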
